A study of Mus musculus with 8 samples.

Results

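The renin-angiotensin system was examined as 9 genes, taken by their symbols from the deposited count tables of mouse aorta. All 9 were listed among 25526 gene symbols. They are the hormone precursor Agt, the converting enzyme Ace, the receptors Agtr1a, Agtr1b and Agtr2, the receptor-associated protein Agtrap, the aminopeptidases Enpep and Lnpep, and the prorenin receptor Atp6ap2. The libraries came from aortic tissue of 4 mice aged 2 years and 4 mice aged 12 weeks. All 8 mice were males of the genotype Fbn1C1041G/+, heterozygous for a missense allele of fibrillin-1 that serves as a mouse model of Marfan syndrome. The series set growth-arrested aneurysms at 2 years against growing aneurysms at 12 weeks. Both ages carry the allele, age is the contrast that the labels give, and they name no drug or other treatment. Library names follow a different scheme at each age, and a cohort or batch that went with age cannot be told apart from it. The sources used here do not name the segment of the aorta, nor say how much fat or adventitia was left on it. No wild-type libraries were analysed here.

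In this system renin cuts angiotensinogen, the product of Agt, to angiotensin I, and Ace removes a dipeptide to give angiotensin II. Angiotensin II constricts vessels and acts on smooth muscle and fibroblasts through the type 1 receptors, which mice encode in the related genes Agtr1a and Agtr1b. Blockers of these receptors limit aortic enlargement in Marfan mice, which is why the system is followed in this model. Aminopeptidases then trim angiotensin II to shorter peptides.

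Expression was measured by bulk RNA sequencing and is given as CPM, the count of a gene scaled to a common library size after TMM normalisation, which evens out differences in composition. Library totals were 16251986 to 33880690 counts at 2 years and 23622803 to 27417541 at 12 weeks. Smooth muscle genes were abundant, as an aorta requires. Acta2 and Myh11 had at least 7120 and 1387 CPM in every library. Of 13978 genes tested by edgeR's quasi-likelihood test, 7272 were called at a Benjamini-Hochberg adjusted p below 0.05, or 52%. The share called higher at 2 years was 25.8% and the share called lower 26.2%. Among the libraries that stood apart was 2 years replicate 3, with mast cell markers at 766.9 CPM in sum and fibroblast markers at 9115 CPM, against 117.9 to 238.9 CPM and 4703 to 5741 CPM in the other 2-year libraries. It also had the fewest counts of all libraries (16251986). White fat markers there summed to 1437 CPM, against 712.8 to 1090 CPM in the other 2-year libraries. This library was also the lowest for Enpep and Lnpep and the highest for Agtr1a and Agtrap. The part of those cells or of depth was not tested. Others were 12 weeks replicate 3, with heart muscle markers at 1342 CPM in sum against 236.9 to 299.9 CPM in the other 12-week libraries, and 2 years replicate 2, with red cell markers at 7939 CPM against 1777 to 2475 CPM in the other 2-year libraries. Of the 9 renin-angiotensin genes 7 passed the filter on low counts, and Agt and Agtr2 did not. Among the 7 tested, 1 rose (Atp6ap2), 2 fell (Enpep and Lnpep) and 4 were not called. The CPM ranges of the ages did not overlap for these same 3 genes, and for 50.4% of all genes tested. Log2 fold changes are 2 years over 12 weeks, and their median was 0.23 over the 7 genes and -0.01 over all genes tested. Fewer cells of a type and less RNA per cell cannot be told apart in such bulk tissue.

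**Figure D1:**
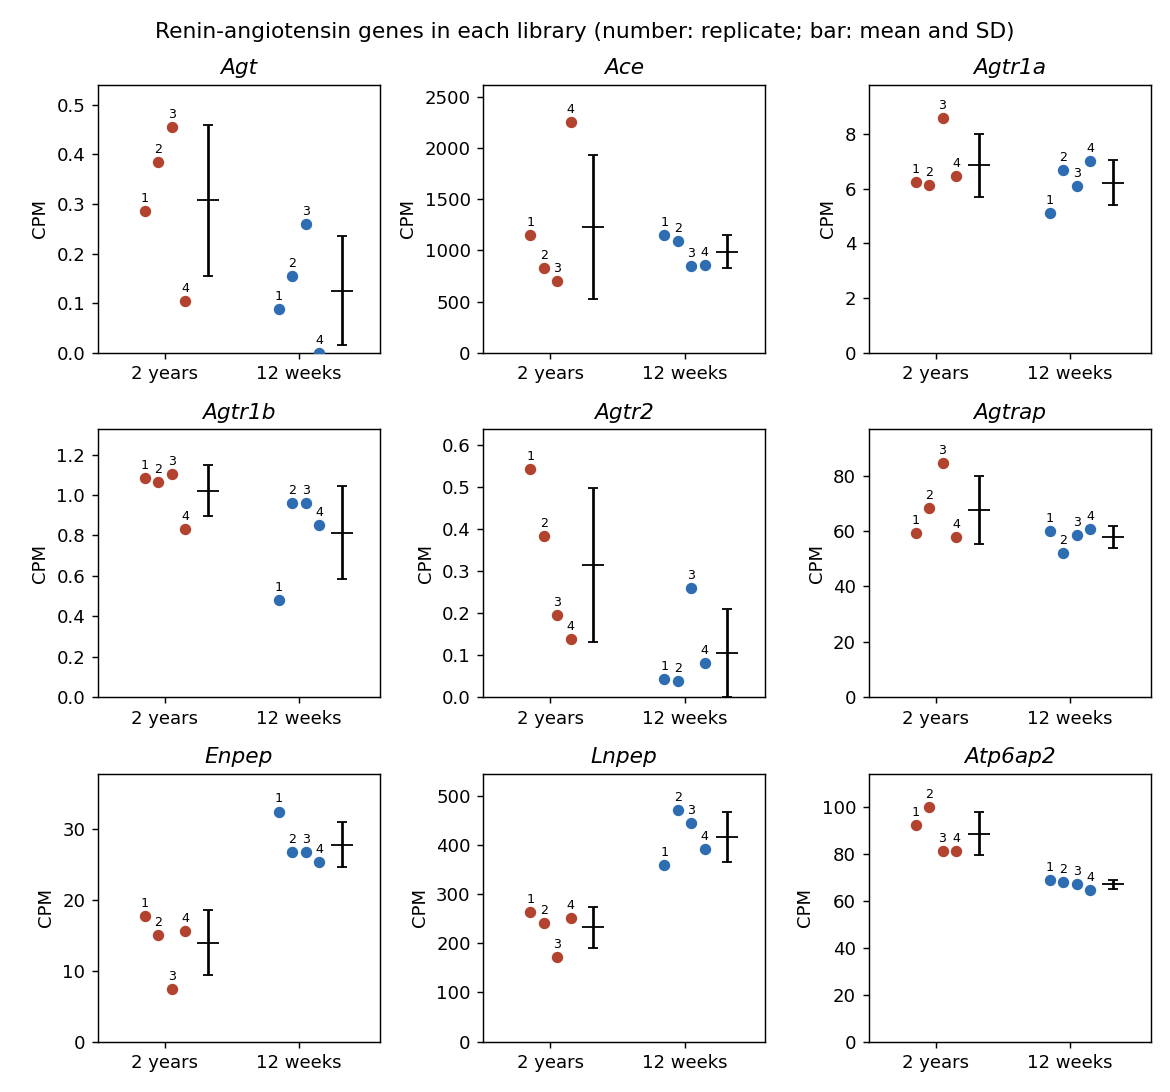
CPM of the 9 renin-angiotensin genes (vertical axes, each from 0) in the 4 libraries at 2 years and the 4 at 12 weeks, numbered by replicate, with the mean and SD beside them. The groups do not overlap for Enpep, Lnpep and Atp6ap2, and 2 years replicate 4 stands at 2250 CPM for Ace.

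Enpep encodes aminopeptidase A, which removes the first residue of angiotensin II to give angiotensin III, and which marks pericytes and, as BP-1, early B cells in mice. Enpep had 17.8, 15.05, 7.41 and 15.66 CPM in 2 years replicates 1 to 4, against 32.49, 26.72, 26.74 and 25.3 CPM in 12 weeks replicates 1 to 4. Every 2-year library was below every 12-week library, and 2 years replicate 3 was the lowest. The mean was 13.98 ± 4.54 CPM at 2 years and 27.82 ± 3.19 CPM at 12 weeks (SD, n = 4 each). Enpep thus fell 1.98-fold (log2 fold change -0.98, SE 0.225, edgeR adjusted p = 0.00373). The fall was called in all 17 alternatives, with log2 fold changes of -1.12 to -0.78 and adjusted p of 0.000174 to 0.012. An offset that removes each library's trend on transcript length and GC share left it almost as large (-0.945). Among 6 tested pericyte markers 1 fell and 0 rose, and the median of their log2 fold changes was 0.16. The pericyte genes Kcnj8 and Abcc9 had log2 fold changes of 0.18 and 0.14 (adjusted p = 0.371 and 0.467), and Cspg4 fell (-0.74, adjusted p = 0.00504). The summed level of all 8 pericyte markers was 1131 to 1590 CPM at 2 years and 1316 to 1759 CPM at 12 weeks. Of 10 smooth muscle markers 7 fell, with a median of -1.02, and their summed level was 17950 to 27010 CPM at 2 years and 31780 to 37750 CPM at 12 weeks. B and plasma cell markers went the other way, with 9 of 9 higher and summed levels of 447 to 1470 CPM at 2 years and 111 to 140.4 CPM at 12 weeks. The part of these cell types in the Enpep result was not tested.

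Lnpep encodes the insulin-regulated aminopeptidase, which also binds angiotensin IV and degrades oxytocin and vasopressin. Lnpep had 263.6, 241.8, 171.6 and 252.1 CPM in 2 years replicates 1 to 4, against 358.7, 471.1, 443.7 and 391.7 CPM in 12 weeks replicates 1 to 4. The groups did not overlap, and 2 years replicate 3 was again the lowest. The mean was 232.3 ± 41.4 CPM at 2 years and 416.3 ± 50.6 CPM at 12 weeks (SD, n = 4 each), a 1.79-fold fall (log2 fold change -0.84, SE 0.162, edgeR adjusted p = 0.00135). The call held in 15 of 17 alternatives and ended in the 2 that apply the length and GC offset. The Lnpep transcript is 12052 nt long, and the value with the offset alone was 0.055 (adjusted p = 0.78). The offset also takes out any age difference that follows length or GC share, and whether the trend is technical was not tested. Adjusted p ranged between 2.26e-06 and 0.893 over the alternatives.

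Atp6ap2 encodes the prorenin receptor, which also serves as an accessory subunit of the vacuolar proton pump (V-ATPase). Atp6ap2 had 92.24, 100, 81.08 and 81.04 CPM in 2 years replicates 1 to 4, against 68.78, 68.04, 67.02 and 64.4 CPM in 12 weeks replicates 1 to 4. All 2-year values were higher, while the 12-week values lay within a narrow range. The mean was 88.6 ± 9.27 CPM at 2 years and 67.06 ± 1.92 CPM at 12 weeks (SD, n = 4 each), a 1.32-fold rise (log2 fold change 0.40, SE 0.115, edgeR adjusted p = 0.0124). The call held in 15 of 17 alternatives. It was lost in the 2 that apply the length and GC offset (0.10, adjusted p = 0.391 with the offset alone). Adjusted p ranged between 0.00108 and 0.482 over the alternatives. The transcript is 2324 nt long. All 15 other V-ATPase genes listed were tested. Of these 9 rose (60%, against 25.8% of all genes tested), 1 fell, and the median log2 fold change was 0.415. Among those with the smallest p were Atp6v0c (0.83), Atp6v0e (0.83), Atp6v1b2 (0.87) and Atp6v1g1 (0.67), subunits of the pump, with edgeR adjusted p of 0.000462 to 0.00105. The offset gave a median of 0.13 for the V-ATPase genes, with 7 higher and 2 lower, and put Atp6v1g1 at -0.08. With the offset and the replicate block together 4 rose. The V-ATPase is abundant in lysosomes of macrophages, and 12 of 14 macrophage markers rose and 0 fell. Their summed level was 2984 to 4385 CPM at 2 years and 887.5 to 1221 CPM at 12 weeks, and its part in the V-ATPase and Atp6ap2 values was not tested.

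**Figure D2:**
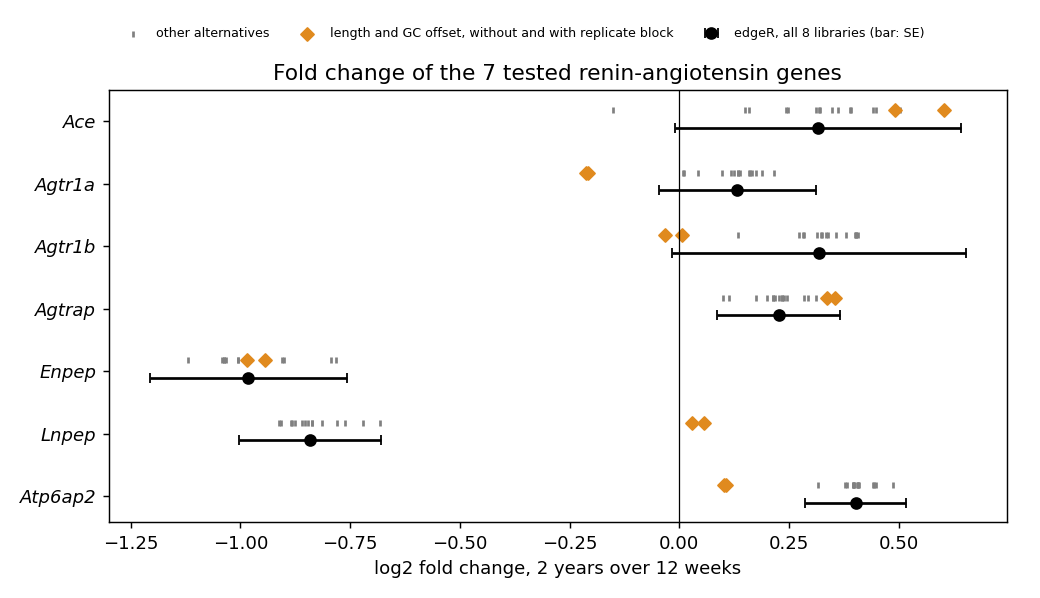
Log2 fold change of the 7 tested renin-angiotensin genes, 2 years over 12 weeks (horizontal axis), with the fit of all 8 libraries as black points with SE, the offset fits as orange diamonds and the other alternatives as grey ticks. Enpep stays between -1.12 and -0.78 throughout, while the offset moves Lnpep to 0.055 and Atp6ap2 to 0.10.

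The promoters of the 3 called genes, and of Ace as the most abundant member, are shown so that their start regions can be compared. Of the 9 members 8 matched RefSeq's promoter table of build GRCm38.p6, and Agtr1a did not. Each line gives the 250 bases before the first listed start, on the strand of the gene. Capitals mark TATAA, known for positioning the start, CCAAT, the motif of the factor NF-Y, and GGGCGG, the motif of Sp1 and its relatives, each searched on both strands. Some of the marked motifs overlap.
Enpep, chr3:129332750-129332999, minus strand: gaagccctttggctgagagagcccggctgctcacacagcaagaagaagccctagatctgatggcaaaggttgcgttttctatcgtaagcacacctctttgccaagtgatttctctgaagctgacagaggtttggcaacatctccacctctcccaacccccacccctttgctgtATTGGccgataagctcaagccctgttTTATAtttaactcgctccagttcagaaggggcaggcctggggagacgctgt
Lnpep, chr17:17624490-17624739, minus strand: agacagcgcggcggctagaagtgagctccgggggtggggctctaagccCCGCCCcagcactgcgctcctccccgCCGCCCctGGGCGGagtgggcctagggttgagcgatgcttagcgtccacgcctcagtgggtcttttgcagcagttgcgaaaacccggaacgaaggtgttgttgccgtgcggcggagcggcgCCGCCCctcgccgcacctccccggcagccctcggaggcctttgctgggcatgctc
Atp6ap2, chrX:12587509-12587758, plus strand: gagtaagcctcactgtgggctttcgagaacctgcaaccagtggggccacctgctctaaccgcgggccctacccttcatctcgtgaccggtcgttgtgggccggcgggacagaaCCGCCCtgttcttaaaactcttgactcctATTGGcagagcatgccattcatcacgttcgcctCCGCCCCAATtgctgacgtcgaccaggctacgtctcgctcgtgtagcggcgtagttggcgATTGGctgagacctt
Ace, chr11:105967698-105967947, plus strand: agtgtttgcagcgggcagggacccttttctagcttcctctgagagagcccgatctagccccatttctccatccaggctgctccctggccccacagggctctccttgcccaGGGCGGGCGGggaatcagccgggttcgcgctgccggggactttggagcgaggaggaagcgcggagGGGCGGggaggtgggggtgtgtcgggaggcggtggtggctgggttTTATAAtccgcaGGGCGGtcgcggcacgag
Enpep holds 1 TATAA match, 51 bases before the start, and 1 CCAAT match, both on the strand opposite the gene. Lnpep holds 4 GGGCGG matches and neither other motif. Atp6ap2 holds 3 CCAAT and 2 GGGCGG matches. Ace holds 2 overlapping TATAA matches, the first 30 bases before the start, and 4 GGGCGG matches. Of 32851 mouse promoter windows of this length, 22.8% hold TATAA, 33.8% CCAAT and 32.7% GGGCGG. A CArG box, the site of serum response factor at smooth muscle genes, matched in none of the windows of the 8 members and in 1.47% of all windows. RefSeq lists 2 starts for Ace, and the deposited counts per gene do not separate them. The inner start is known in mice for the testis form of the enzyme.

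Ace, known for its place on vessel endothelium, was the member with the highest level. It had 1146, 825.9, 697.3 and 2250 CPM in 2 years replicates 1 to 4, against 1154, 1091, 847.5 and 861.2 CPM in 12 weeks replicates 1 to 4. The groups overlapped, since 2 years replicates 2 and 3 lay below all 12-week libraries and replicate 4 stood far above. The mean was 1230 ± 706 CPM at 2 years and 988.4 ± 157 CPM at 12 weeks (SD, n = 4 each). The coefficient of variation was 57.4% at 2 years and 15.9% at 12 weeks. Ace was not called (log2 fold change 0.315, SE 0.326, edgeR adjusted p = 0.439). Without 2 years replicate 4 the value was -0.15 (adjusted p = 0.563), and it was 0.24 to 0.50 without any other single library. Endothelial markers in 2 years replicate 4 summed to 875.2 CPM, against 688.1 to 821 CPM in the other 2-year libraries and 661.5 to 1149 CPM at 12 weeks. Macrophages can also make Ace. Their markers summed to 3362 CPM in 2 years replicate 4, within the range of the other 2-year libraries. That library was the highest for B and plasma cell markers, at 1470 CPM against 447 to 966.4 CPM in the other 2-year libraries, and for T and NK cell markers, at 90.34 CPM against 53.55 to 75.36 CPM. The part of any of these cells in the Ace value was not tested. Of 14 endothelial markers 1 rose and 3 fell (median -0.01).

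The genes whose log2 CPM followed Ace most closely over the 8 libraries were Mlph, Fn1 and Xpo5, with Pearson's r of 0.975, 0.965 and 0.959. All the points share the library sizes, and 4 of 12916 genes exceeded 0.95. Leaving out 1 library lowered r to 0.97 for Mlph, 0.871 for Fn1 and 0.859 for Xpo5 at the least. Fn1, the matrix protein fibronectin, had 4960, 3221, 3342 and 9793 CPM in 2 years replicates 1 to 4 and 4753, 4651, 3103 and 2950 CPM in 12 weeks replicates 1 to 4, highest in the same 2-year library as Ace. Enpep was most like Ubox5, Adcy7 and Dmxl2, with r of 0.992 to 0.995. Lnpep was most like Cap2, Sestd1 and Tasor (r of 0.992 to 0.993), and Atp6ap2 most like Serp1, Gyg and Ube2d2a (r of 0.991 to 0.994). Each of these called genes had between 113 and 395 genes above 0.95. Because r runs across both ages, their age difference itself enters it, and r within an age was not computed for these pairs. Among the called members, Enpep and Lnpep had r of 0.922 over the 8 libraries and 0.728 with each age's mean removed. Atp6ap2 went from -0.739 to 0.399 with Lnpep and from -0.614 to 0.539 with Enpep. Agtr1a was most like Cep19 (0.971) and Agtrap most like Mfsd3 (0.986).

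The ratio of Ace to Enpep, both in CPM, sets the enzyme that forms angiotensin II beside the one that trims it. It was 64.4, 54.9, 94.1 and 144 in 2 years replicates 1 to 4, against 35.5, 40.8, 31.7 and 34.0 in 12 weeks replicates 1 to 4. The groups did not overlap. The mean was 89.2 ± 39.9 at 2 years and 35.5 ± 3.88 at 12 weeks (SD, n = 4 each). It is given without a test because both genes were chosen with results known, and Enpep alone already differed.

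The receptors were counted at low levels. Agtr1a, the main type 1 receptor gene of mouse vessels, had 6.25, 6.14, 8.58 and 6.46 CPM in 2 years replicates 1 to 4, against 5.11, 6.70, 6.10 and 7.02 CPM in 12 weeks replicates 1 to 4. The groups overlapped, and 2 years replicate 3 was the highest library. The mean was 6.86 ± 1.16 CPM at 2 years and 6.23 ± 0.838 CPM at 12 weeks (SD, n = 4 each), and the gene was not called (log2 fold change 0.13, SE 0.179, edgeR adjusted p = 0.557). Agtr1b, the second type 1 receptor gene, had 1.08, 1.07, 1.11 and 0.833 CPM in 2 years replicates 1 to 4, against 0.480, 0.963, 0.962 and 0.852 CPM in 12 weeks replicates 1 to 4. It was not called (0.32, SE 0.335, edgeR adjusted p = 0.447), and 12 weeks replicate 1 was the lowest. With the length and GC offset, Agtr1a was at -0.21 and Agtr1b at -0.03, both not called, so neither direction held under every scaling.

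The coding sequences of Agtr1a and Agtr1b are closely similar, and the sources used here do not say how reads that match both were handled. Their split is therefore uncertain. Agtr1b took 14.8, 14.8, 11.4 and 11.4% of the counts of the pair in 2 years replicates 1 to 4, against 8.59, 12.6, 13.6 and 10.8% in 12 weeks replicates 1 to 4. The exact Clopper-Pearson 95% intervals ran from 6.79 to 21.1% at 2 years and from 4.37 to 19.3% at 12 weeks, and cover counting error only. The shares overlapped between the ages.

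Agtr2, the type 2 receptor that often opposes the type 1 receptors, had 19, 9, 3 and 4 counts in 2 years replicates 1 to 4, against 1, 1, 7 and 2 counts in 12 weeks replicates 1 to 4. The level was 0.315 ± 0.184 CPM at 2 years and 0.106 ± 0.104 CPM at 12 weeks (SD, n = 4 each), and the ranges overlapped. The ratio of summed counts scaled by library size was 3.12, with a counting interval of 1.55 to 6.80 that leaves out the spread between mice. Over the mice the two-sided exact permutation p was 0.114, where the smallest p that 70 assignments allow is 0.0286. Without the low-count filter edgeR gave a log2 fold change of 1.54 (adjusted p = 0.117).

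Agtrap, which binds the type 1 receptor and favours its internalisation, had 59.34, 68.36, 84.72 and 58.02 CPM in 2 years replicates 1 to 4, against 59.96, 51.94, 58.44 and 60.63 CPM in 12 weeks replicates 1 to 4. The groups overlapped, and 2 years replicate 3 was the highest. The mean was 67.61 ± 12.3 CPM at 2 years and 57.74 ± 3.97 CPM at 12 weeks (SD, n = 4 each), with no call (log2 fold change 0.23, SE 0.141, edgeR adjusted p = 0.199). The offset made it a call (0.355, adjusted p = 0.046). Over the alternatives its adjusted p lay between 0.046 and 0.521.

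Agt, the precursor gene, was almost uncounted. It had 10, 9, 7 and 3 counts in 2 years replicates 1 to 4, against 2, 4, 7 and 0 counts in 12 weeks replicates 1 to 4. The level was 0.307 ± 0.152 CPM at 2 years and 0.125 ± 0.109 CPM at 12 weeks (SD, n = 4 each), and the ranges overlapped. The 0 counts of 12 weeks replicate 4 allow up to 0.122 CPM, a limit of 3 counts. The ratio of summed counts scaled by library size was 2.18 (counting interval 1.10 to 4.58). The two-sided exact permutation p over the mice was 0.114, and without the low-count filter edgeR gave 1.20 (adjusted p = 0.251). Agt is known from liver and also from fat and fibroblasts, both of which these libraries held. The fat cell gene Adipoq had 30.64, 90.41, 122.0 and 38.26 CPM at 2 years and 9.52, 12.94, 61.7 and 22.87 CPM at 12 weeks. The fibroblast gene Pdgfra had 171.7 to 209.5 CPM at 2 years and 190.5 to 243.5 CPM at 12 weeks. Whether reads of Agt were lost in counting was not tested.

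Levels between the genes were compared per kilobase (kb) of the longest protein-coding transcript. At 2 years the order was Ace (250.7 ± 144 CPM per kb), Atp6ap2 (38.12 ± 3.99), Lnpep (19.27 ± 3.44), Agtrap (16.92 ± 3.08), Enpep (3.34 ± 1.08), Agtr1a (3.12 ± 0.526), Agtr1b (0.476 ± 0.0591), Agt (0.162 ± 0.0805) and Agtr2 (0.0959 ± 0.0561; SD, n = 4). At 12 weeks Lnpep (34.54 ± 4.2) stood above Atp6ap2 (28.86 ± 0.825), and the other members kept this order. Neighbours whose library ranges overlapped at 2 years were Lnpep and Agtrap, Enpep and Agtr1a, and Agt and Agtr2. At 12 weeks Lnpep (29.77 to 39.09 CPM per kb) lay barely above Atp6ap2 (27.71 to 29.6), the ranges of Agt and Agtr2 overlapped, while Enpep lay at 6.05 to 7.77 CPM per kb, clear of Agtr1a at 2.32 to 3.19 CPM per kb. Ace was thus the member with the highest level and Agt and Agtr2 those with the lowest at both ages.

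**Figure D3:**
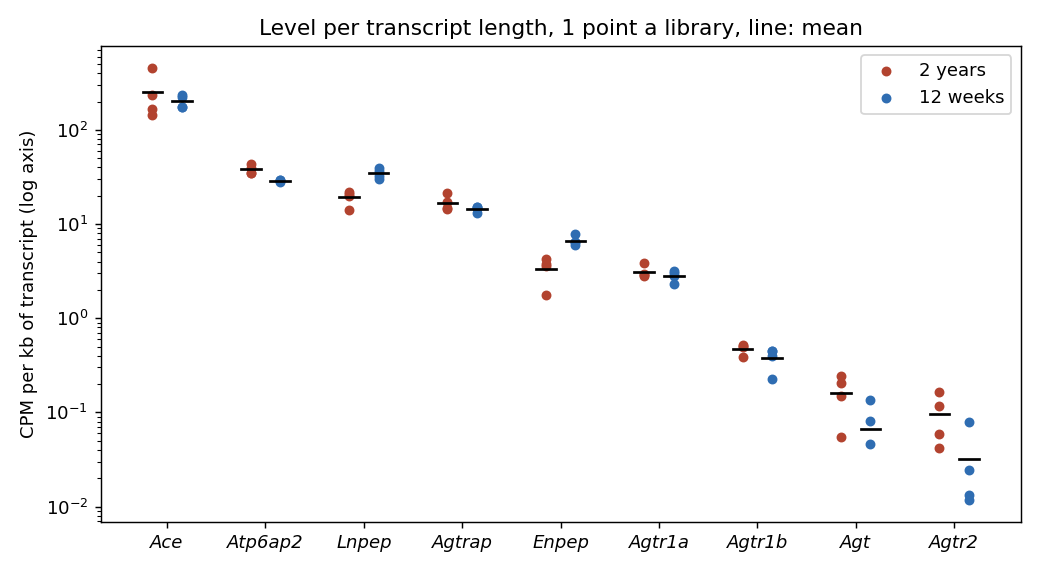
CPM per kb of transcript (log axis) of the 9 genes in each library, with 2 years in red, 12 weeks in blue and a black line at each mean. The 0 of Agt in 12 weeks replicate 4 cannot be drawn on the log axis, and the order runs from Ace at 250.7 to Agtr2 at 0.0959 CPM per kb at 2 years.

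Other peptidases and receptors of the pathway were described from a list of 15, of which 11 were tested. Of these 4 rose (36.4%) and 0 fell, against 25.8% and 26.2% of all genes tested, and the median was 0.18. Ren1, the renin gene, had 3.14, 1.37, 1.63 and 2.99 CPM in 2 years replicates 1 to 4, against 3.41, 3.77, 3.55 and 5.11 CPM in 12 weeks replicates 1 to 4. All 2-year values were lower, yet the gene narrowly missed the threshold (log2 fold change -0.78, SE 0.308, edgeR adjusted p = 0.0522). Ren1 was called lower by 7 of 17 alternatives, among them DESeq2 (adjusted p = 0.0344) and the offset (-1.17, adjusted p = 0.0145). Over all alternatives its adjusted p was 0.0145 to 0.146. Prcp, a carboxypeptidase that cuts angiotensin II and III, had 73.45 ± 17.1 CPM at 2 years and 26.7 ± 1.78 CPM at 12 weeks (SD, n = 4 each; 1.46, edgeR adjusted p = 3.81e-05). Ctsa, a lysosomal carboxypeptidase, also rose (0.53, edgeR adjusted p = 0.0062).

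The mast cell proteases Cma1, whose human counterpart forms angiotensin II, and Cpa3 rose with log2 fold changes of 2.16 and 1.71 (edgeR adjusted p = 0.0202 and 0.0272). Cma1 had 17.77, 30.66, 126.0 and 33.4 CPM in 2 years replicates 1 to 4, against 14.67, 10.55, 7.44 and 13.75 CPM in 12 weeks replicates 1 to 4, highest in 2 years replicate 3. Without that library Cma1 was at 1.23 and Cpa3 at 0.93, both still called. Both lost the call with the offset, with the replicate block (adjusted p = 0.0876 and 0.108) and with both, and Cpa3 also without 12 weeks replicate 3 (adjusted p = 0.0563). Of 8 mast cell markers, these 2 among them, 7 rose and 0 fell. Their summed level was 117.9 to 766.9 CPM at 2 years and 57.18 to 98.05 CPM at 12 weeks.

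Mas1, the receptor of angiotensin 1-7, was near 0, with 1 count in all at 2 years and 3 counts at 12 weeks. Mme (neprilysin), which forms that peptide from angiotensin I, was at 24.95 ± 2.31 CPM at 2 years and 22.03 ± 9.97 CPM at 12 weeks (SD, n = 4 each; 0.18, edgeR adjusted p = 0.609). It was called higher with the offset (0.79, adjusted p = 0.0321) and was at -0.047 without 12 weeks replicate 1.

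Of 9 tested genes of the M1 aminopeptidase family, 3 fell (33.3%) and 1 rose (11.1%), with a median of 0.01. Among all genes tested 26.2% fell and 25.8% rose. Enpep and Lnpep belong to this family and are among the 3 that fell. Besides these members, Aopep (aminopeptidase O) had 62.21 ± 6.52 CPM at 2 years and 143.9 ± 31.7 CPM at 12 weeks (SD, n = 4 each; -1.21, edgeR adjusted p = 0.000118). Rnpep (aminopeptidase B) rose (0.48, edgeR adjusted p = 0.00478). Anpep, Npepps, Erap1, Rnpepl1 and Lta4h were not called, with values of -0.32 to 0.205. With the offset 2 fell, Enpep and Aopep, and 2 rose.

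Ace also destroys bradykinin, so genes of the kinin system were included. Of 8 listed, 4 were tested, 2 rose (50%) and 1 fell (25%), against 25.8% and 26.2% of all genes tested. The median over these 4 was 0.62. Kng2, a kininogen gene, had 2.57, 2.09, 5.85 and 1.98 CPM in 2 years replicates 1 to 4, against 0.655, 0.0770, 0.888 and 0.203 CPM in 12 weeks replicates 1 to 4 (2.74, edgeR adjusted p = 0.00352). Kng1 and Kng2 are near-identical, so this count is uncertain. Cpm, a carboxypeptidase that trims kinins, rose (1.15, edgeR adjusted p = 0.0228). Bdkrb2, the constitutive bradykinin receptor, fell (-0.75, edgeR adjusted p = 0.0495). The last 2 calls were weak. Cpm was not called without 12 weeks replicate 1, 2 or 4 or 2 years replicate 1 or 4 (adjusted p = 0.0506 to 0.0699), nor with the replicate block (adjusted p = 0.0698). Bdkrb2 was not called in 12 of 17 alternatives, including 6 of the 8 that leave out a library, namely 12 weeks replicate 2, 3 or 4 and 2 years replicate 1, 2 or 3 (adjusted p = 0.0791 to 0.117).

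Genes that carry or damp the type 1 receptor's signal were called in both directions, as were all genes tested. Because the list mixes the 2 kinds, its counts give no direction for the signal. Of 24 tested, 9 fell (37.5%) and 7 rose (29.2%), against 26.2% and 25.8% of all genes tested. The median was -0.05. Plcb4 and Plcb3, phospholipases that Gq activates, had log2 fold changes of -1.67 and -0.95 (edgeR adjusted p = 8.66e-05 and 0.000225). Plcb4 had 124.1 ± 32.7 CPM at 2 years and 395.3 ± 79 CPM at 12 weeks (SD, n = 4 each). Arhgef1, the exchange factor that the receptor engages in smooth muscle, fell (-1.42, edgeR adjusted p = 6.47e-05). Arrb2, a beta-arrestin that ends G protein signalling, rose (1.28, edgeR adjusted p = 7.38e-05), with 52.6 ± 11.4 CPM at 2 years and 21.68 ± 1.85 CPM at 12 weeks (SD, n = 4 each). Gnaq, the G protein subunit itself, was at -0.12 (adjusted p = 0.568). With the offset 10 rose and 7 fell and the median was 0.20. Smooth muscle markers fell and macrophage markers rose in the same libraries, as given above, and their part here was not tested.

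Genes known to rise with angiotensin II in vessels or cells were mostly higher. Of 22 tested, 13 rose and 0 fell (median 0.90), with 59.1% called against 25.8% of all genes called higher. Since the list was chosen with earlier results of these data known, this excess is a description and not a test of angiotensin II activity. Cybb, a subunit of the phagocyte NADPH oxidase, had 191.1 ± 10.5 CPM at 2 years and 33.33 ± 6.05 CPM at 12 weeks (SD, n = 4 each; 2.52, edgeR adjusted p = 9.21e-07). Its partner Cyba (1.87), the monocyte chemokine Ccl2 (4.39) and the adhesion molecule Vcam1 (2.20) were the others with the smallest p. Cyba was at 1.13 and Ccl2 at 3.44 with the offset. Cybb, Cyba and Ccl2 are also expressed by macrophages, whose markers rose in the same libraries. Egr1, Nr4a1 and Nox4 were not called (-0.18, -0.30 and -0.13). Of 7 corticosteroid receptor genes and targets, Fkbp5 (1.51, edgeR adjusted p = 0.000106) and Sgk1 (0.83, edgeR adjusted p = 0.0067) rose and 0 fell. The share that rose was 28.6%, near the 25.8% of all genes tested. The mineralocorticoid receptor gene Nr3c2 was at -0.08 (adjusted p = 0.751).

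**Figure D4:**
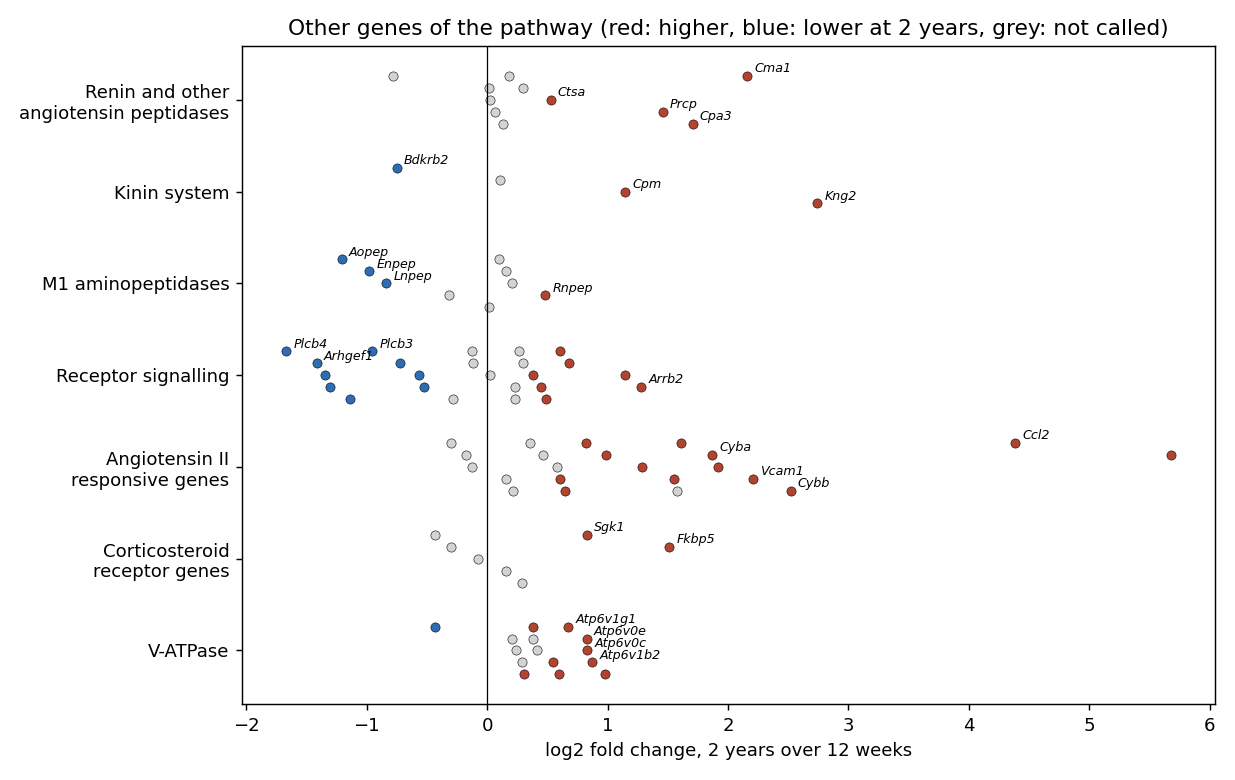
Log2 fold change, 2 years over 12 weeks (horizontal axis), of each tested gene in 7 lists around the renin-angiotensin system, coloured red where called higher, blue where called lower and grey where not called. Of 22 angiotensin II responsive genes 13 are red and 0 blue, and of 24 receptor signalling genes 7 are red and 9 blue. Among all genes tested 25.8% were called higher and 26.2% lower.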

How the data were processed

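Aortic RNA from 4 mice at 2 years and 4 at 12 weeks was sequenced on a NovaSeq instrument after column extraction, per the labels' protocols. The authors deposited raw counts per gene symbol, per the file headers, and the submitters' processing notes name the build GRCm39. The sources used here name no aligner, counter, annotation or strand setting, so overlapping genes and near-identical copies are uncertain. Genes passing filterByExpr (edgeR defaults) entered edgeR's quasi-likelihood test (robust fit, TMM scaling, age as the only term) with Benjamini-Hochberg adjustment over all genes tested. The SE is the absolute log2 fold change divided by the root of F. Log2 CPM used a prior count of 2. Transcript length and GC share came from GENCODE M21 (build GRCm38) by symbol, for 98.9% of genes tested. Alternatives were other scalings, DESeq2, limma voom, no filter beyond 1 count, libraries left out, the replicate block and a length and GC offset (natural splines, 4 degrees of freedom). The labels do not say how mice were matched or batched. The p-values set the age difference against the variation among the 4 mice of each age. They cannot separate age from a cohort or batch that went with it. The members and lists were chosen with earlier results of these data known. Genes named are all members, up to 4 called genes with the smallest p per list, genes fixed by name, marker genes beside a result and the genes most like a member. Some of these are not reported here. Other genes named as not called, and Kng1, Bdkrb1, Klk1 and Cpn1, were picked with their values in view. The edgeR test was run on simulated counts with known changes in a small share of genes, to check their direction. Far more genes were called here, so that run does not gauge the error rate of these calls. The software was edgeR 4.0.16, DESeq2 1.42.0 and limma 3.58.1 in R 4.3.3.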

Additional observations from a re-analysis of the deposited data

Results flagged for a closer look

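In groups of 4 libraries, a library was taken as far from the others when its gap to the nearest, as a share of the group's range, exceeded Dixon's 95% limit. Of 72 groups examined (36 genes at 2 ages) 11 held such a library, where chance gives about 1 in 20. Among the renin-angiotensin genes these were Agtr1a in 2 years replicate 3, high at 8.58 CPM with the nearest at 6.46 CPM, and Agtr1b in 2 years replicate 4, low at 0.833 CPM with the nearest at 1.07 CPM. Ace in 2 years replicate 4, at 2250 CPM, did not pass this limit because the other 3 libraries also spread.

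Among the other named genes, 2 years replicate 3 was high for Cma1 (126.0 CPM) and Kng2 (5.85 CPM), 2 years replicate 1 for Aopep (71.9 CPM), and 2 years replicate 4 for Mas1 (0.0347 CPM, a single count). In 12 weeks replicate 1, Aopep (191.3 CPM), Arhgef1 (178.8 CPM) and Atp6v0e (64.72 CPM) were high and Bdkrb2 (2.97 CPM) was low. Atp6v1b2 was low in 12 weeks replicate 2 (39.08 CPM). Causes were not tested.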

How the results depend on the processing

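Over 17 alternatives the 7 tested renin-angiotensin genes gave 119 values, of which 110 kept direction and side of the threshold, 2 lost the call in the same direction (Atp6ap2), 1 gained it (Agtrap) and 6 changed sign. The 2 of opposite sign for Lnpep lost its call as well. With the length and GC offset, alone and with the replicate block, Lnpep was at 0.055 and 0.029 and Agtr1a at -0.209 and -0.213. Atp6v1g1 was at -0.08 in both. Agtr1b was at -0.032 with the offset alone. With the offset the members called were 1 higher (Agtrap, not Atp6ap2) and 1 lower (Enpep), and with the block added 0 higher and 1 lower. Leaving out 1 library gave Ace -0.151 (2 years replicate 4) to 0.503 and Mme -0.047 (12 weeks replicate 1) to 0.489. The causes were not tested.

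Leaving out 1 library gave 1 higher and 2 lower members each time, 3096 to 3620 genes higher and 3201 to 3801 lower among all genes. The other 25 named genes gave 387 values of the same kind, 26 weaker, 9 stronger and 3 of opposite sign. Among lists, kinin genes called higher were 5 without the filter, 4 without 12 weeks replicate 3 and 1 without 2 years replicate 1 or with the replicate block.

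Same-numbered libraries of the 2 ages did not deviate together (correlations -0.308, -0.116, 0.051 and 0.025), so the numbers were not taken as pairs. The replicate block gave 3112 genes higher and 3320 lower, against 3611 and 3661, and the same member calls (1 higher and 2 lower). Agt, Agtr2 and Mas1, with 1 to 35 summed counts a group, are limited by depth.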

Other observations

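The low-count filter removed 4 of the 8 kinin genes, and these were looked at with their values in view. Bdkrb1, the bradykinin receptor that tissue injury induces, had 1.34, 1.45, 1.24 and 0.382 CPM in 2 years replicates 1 to 4, against 0.131, 0.0770, 0.222 and 0.203 CPM in 12 weeks replicates 1 to 4. The groups did not overlap, and without the filter edgeR gave a log2 fold change of 2.75 (adjusted p = 0.00172). Kng1 had 18, 19, 10 and 3 counts at 2 years and 0 counts in all 12-week libraries. The pooled counts were 16.3-fold higher when the 12-week group was given 3 counts as its limit. That value leaves out the counting error of the 2-year counts and the spread between mice. Klk1, a tissue kallikrein that releases kinins, was at 0.242 ± 0.127 CPM at 2 years and 0.0189 ± 0.0218 CPM at 12 weeks (SD, n = 4 each; log2 fold change 3.26, edgeR adjusted p = 0.0136 without the filter). Cpn1, a carboxypeptidase that trims kinins, had 3, 0, 6 and 1 counts in 2 years replicates 1 to 4, against 1, 0, 0 and 0 counts in 12 weeks replicates 1 to 4. Its ranges overlapped, and it was not among the 5 kinin genes called higher without the filter. Kallikrein genes and the kininogen pair have close relatives, and their counts are uncertain.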
